A study of Mus musculus with 3 samples.

Results

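The unfolded protein response and the secretory machinery of the endoplasmic reticulum (ER) were described through 40 genes, out of 27179 gene IDs measured. The genes were chosen by name for their roles and not for their values, although earlier results of these data were known. They comprised 4 stress sensors, 3 transcription factors, 3 genes that act in feedback on the eIF2-alpha arm, 10 ER-associated degradation genes, 11 folding genes and 9 genes of the protein-conducting channel (the translocon). All 40 had a row in the count table. One of them, Ero1l, is listed by RefSeq under its current symbol Ero1a. RNA sequencing was done on bulk group 2 innate lymphoid cells (ILC2s), tissue lymphocytes that secrete type 2 cytokines such as interleukin-5. The single group consisted of 3 wild-type C57BL/6 mice with 1 library each, named mouse 1, 2 and 3 after the sample numbers, and no treatment was named. The sort took CD45+ KLRG1+ cells that also carried CD127 and CD90.2, and removed cells with B220, CD11b, CD11c, NK1.1, CD8, CD5 or CD3 on their surface. The labels name no tissue, age, sex or time of collection, and the title of the study concerns the circadian clock in gut ILC3s.

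With 1 group, no contrast between conditions existed, so the comparisons lie between genes within a library and between the 3 libraries. Library totals were 17819551 to 26374248 counts, lowest in mouse 2 and highest in mouse 3. At these depths 3 counts corresponded to 0.115 to 0.171 CPM, the count per 1000000 counts of a library. The labelled cell type was checked first. All 12 ILC2 markers were detected, and their summed level was 19559 CPM in mouse 1, 15482 CPM in mouse 2 and 15167 CPM in mouse 3. Plasma cells are the other lymphoid cells known for heavy use of the ER, and 10 of their 12 markers were detected too. The summed level of the plasma cell markers was 12360 CPM in mouse 1, 34305 CPM in mouse 2 and 62630 CPM in mouse 3, most of it immunoglobulin and Jchain. Of 5 B cell markers only Cd79b was detected, with 139, 129 and 155 CPM in mice 1, 2 and 3, while Pax5 and Ms4a1 were at 0 counts in all 3 libraries. In addition, the plasma cell surface marker Sdc1 had 1, 3 and 16 counts in mice 1, 2 and 3. In such bulk libraries, fewer cells of a type and less RNA per cell cannot be told apart.

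As background, secreted and membrane proteins enter the ER through the Sec61 channel, are glycosylated, folded and oxidised in its lumen, and are returned to the cytosol for destruction if they fail to fold. When unfolded proteins build up, 3 membrane sensors respond. IRE1 (gene Ern1) splices the mRNA of Xbp1, PERK (gene Eif2ak3) phosphorylates eIF2-alpha and so favours translation of Atf4, and ATF6 is cut by proteases in the Golgi to release a transcription factor. The response is best known in lymphoid tissue from plasma cells, which need Xbp1 to secrete antibody. ATF6 and the spliced form of XBP1 act through short promoter words known as ER stress response elements (ERSE and ERSE-II). Counts per gene do not separate the spliced from the unspliced Xbp1 mRNA, and phosphorylation or cleavage of the sensors is not visible in RNA.

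The promoters of these genes were searched for these elements. The elements are named for the same response from which the genes were chosen. A higher share among these genes is therefore not independent of the choice by role. RefSeq promoter windows of GRCm38.p6, from 250 bases before to 50 bases after the gene start, were matched for 33 of the 40 genes. An ERSE was searched on both strands as CCAAT, 9 bases of any kind and then CCACG. It was found in 6 of the 33 genes (18.2%), against 14 of 7198 genes tested for variability (0.194%) and 37 of 27025 genes with a window (0.137%). The shorter ERSE-II, searched as ATTGG, 1 base of any kind and then CCACG, was found in 1 of the 33 genes (3.03%), against 12 of 27025 genes (0.0444%). The single words were far more common. CCAAT alone was in 69.7% of the 33 genes, 43.2% of the tested genes and 41.1% of all genes. CCACG alone was in 69.7% of the 33 genes, 53.4% of the tested genes and 35.5% of all genes. TGACG, the core of cyclic AMP response elements, was in 36.4% of the 33 genes, below the 39.1% of the tested genes and above the 23% of all genes. The single-word counts include the words inside each ERSE. The fragments below run 5′ to 3′ in the orientation of the motif, with the motif in capitals and 10 flanking bases on each side.
Calr, chr8:84847065-84847103, plus strand: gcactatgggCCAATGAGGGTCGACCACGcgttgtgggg
Canx, chr11:50325790-50325828, minus strand: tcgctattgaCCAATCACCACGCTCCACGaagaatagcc
Creld2, chr15:88819510-88819548, minus strand: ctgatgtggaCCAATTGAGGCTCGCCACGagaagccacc
Pdia6, chr12:17266481-17266519, plus strand: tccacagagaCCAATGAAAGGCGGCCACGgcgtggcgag
Derl3, chr10:75893232-75893270, minus strand: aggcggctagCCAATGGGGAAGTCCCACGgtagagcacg
Syvn1, chr19:6046522-6046560, plus strand: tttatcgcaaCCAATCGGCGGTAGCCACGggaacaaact
Herpud1, chr8:94386367-94386397, plus strand: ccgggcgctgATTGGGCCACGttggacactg
Calr, Canx, Creld2 and Pdia6 are folding genes, and Derl3, Syvn1 and Herpud1 are degradation genes. The last fragment is the ERSE-II, and the 6 before it are ERSEs. Relative to the gene start, the motif base farthest upstream lay at -162 in Calr, -156 in Derl3, -145 in Canx, -126 in Creld2, -98 in Pdia6, -52 in Herpud1 and -44 in Syvn1. A match is a description of the sequence and not evidence of binding. The levels of these 7 genes had a wide range. Derl3 and Syvn1 were among the lowest of the degradation genes and Herpud1 was the highest of them.

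Most of the 40 genes were above the median level of detected genes in these cells (13.7 TPM, a level per exon length). Detection, defined as at least 1 CPM in each library, was reached by 37 of 40, against 31.1% of all gene IDs in the table, many of which belong to genes silent in lymphocytes. The exceptions were Atf6b, Trib3 and Hyou1. Levels of different genes were compared in TPM, in which counts are divided by exon length and scaled to a sum of 1000000 in each library. The median of the 40 mean levels was 52.3 TPM, against 11.9 TPM over all 9175 genes tested for variability. Among 8049 detected genes with a known length, the members' median percentile was 73.1. The range was wide, with a mean level of 753 TPM for the translocon gene Ssr2 and 0.22 TPM for the chaperone gene Hyou1.

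**Figure D1:**
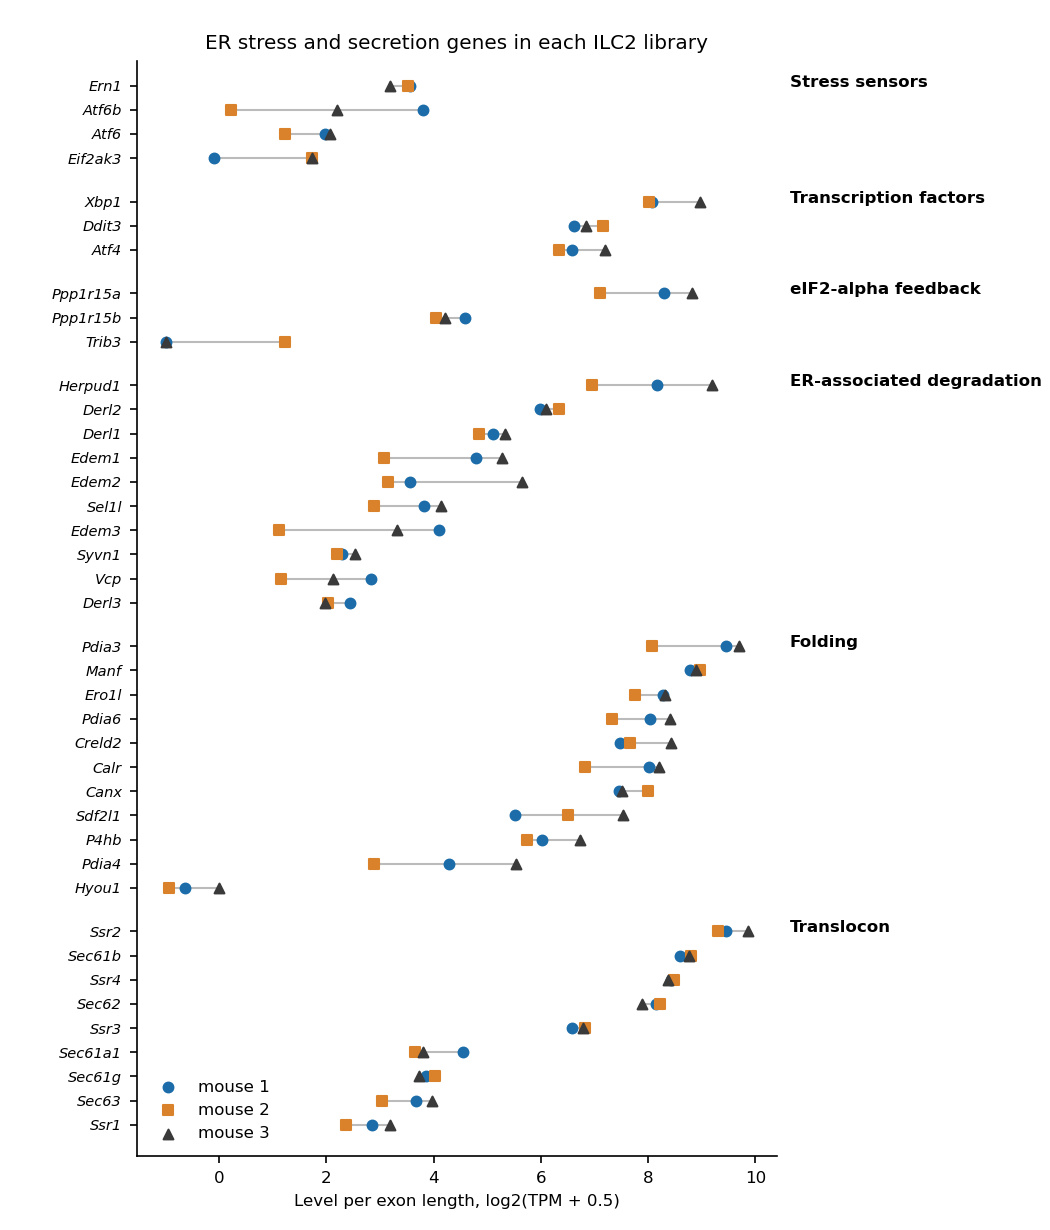
Level of each of the 40 genes in each library, as log2(TPM + 0.5), grouped by role and ordered by mean TPM within a role. Points are single libraries and grey lines join the lowest and the highest. The sensors lie at the low end (2.01 to 10.2 TPM on average), while Xbp1, Pdia3, Manf and Ssr2 lie at the high end (342 to 753 TPM).

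The stress sensors had low transcript levels. Ern1, which encodes the kinase and endoribonuclease IRE1-alpha, had 35.6, 36.2 and 26 CPM in mice 1, 2 and 3, and a mean of 10.2 ± 1.41 TPM (SD, n = 3, as for every SD below). Eif2ak3, which encodes the kinase PERK, had 1.01, 6.88 and 6.25 CPM and a mean of 2.01 ± 1.37 TPM. Mouse 1 stood apart from the other two for Eif2ak3, while Ern1 was close to even. Atf6 had 12.3, 6.94 and 12.5 CPM, or 2.97 ± 0.985 TPM on average, and was lowest in mouse 2. Its paralogue Atf6b had 14.4, 0.739 and 4.14 CPM, and so missed the detection limit in mouse 2 with 13 counts. The ratio of highest to lowest library, on the log2(CPM + 0.5) scale used for all such ratios, was 12 for Atf6b, the widest among the 38 genes that passed the filter on low counts.

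The transcription factors downstream of the sensors had far higher transcript levels. Xbp1 had 339 CPM in mouse 1, 341 CPM in mouse 2 and 604 CPM in mouse 3, with a mean of 342 ± 139 TPM. Mice 1 and 2 were almost equal for Xbp1, and mouse 3 was above both. Atf4, the activator of amino acid and redox genes, had 87.8, 77.0 and 126 CPM in mice 1, 2 and 3 and averaged 107 ± 33.9 TPM. Ddit3, which encodes the pro-apoptotic factor CHOP, had 65.3, 99.2 and 72.4 CPM and averaged 118 ± 22.4 TPM. Each of the 3 factors thus had its own order of libraries, and none spanned 2-fold.

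The genes that feed back on eIF2-alpha lay at both extremes. Ppp1r15a encodes GADD34, the stress-inducible subunit that directs a phosphatase to eIF2-alpha, and had 359, 164 and 490 CPM in mice 1, 2 and 3, or 300 ± 157 TPM on average. Ppp1r15b, the constitutive counterpart, had 51.2, 36.4 and 37.1 CPM, or 19.1 ± 3.89 TPM. Mouse 2 was lowest for both, but only Ppp1r15a spanned more than 2-fold. Trib3, a pseudokinase gene induced by ATF4 and CHOP, had 0, 28 and 0 counts, so its reads came from mouse 2 alone, at 1.59 CPM.

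In ER-associated degradation, all 10 genes were detected, and they differed most between libraries of the roles with more than 4 genes. The median ratio of highest to lowest library was 2.71, against 1.75 over all genes tested. That of the 4 stress sensors was higher, at 2.92. Herpud1, which encodes a membrane scaffold of the degradation complex, was the highest by length, with 331 ± 233 TPM. It had 260 CPM in mouse 1, 118 CPM in mouse 2 and 505 CPM in mouse 3. The 3 EDEM genes encode proteins that promote mannose trimming and so mark misfolded glycoproteins for removal. Edem1 had 68.3, 20.9 and 91.8 CPM in mice 1, 2 and 3. Edem2 had 15.2, 11.9 and 63.2 CPM, a ratio of 5.15, and Edem3 had 41.3, 4.32 and 22.4 CPM, a ratio of 8.68. All 3 EDEM genes were lowest in mouse 2, but Edem1 and Edem2 were highest in mouse 3 and Edem3 in mouse 1.

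Of the other degradation genes, Syvn1 and the Derl genes were more even. Syvn1, which encodes the ubiquitin ligase HRD1, had 8.38, 8.08 and 9.47 CPM in mice 1, 2 and 3, and its ratio of 1.16 was the smallest among the 38 genes. Its level was low, at 4.58 ± 0.613 TPM. Sel1l, the adaptor that holds HRD1 in its complex, had 45.6, 23.9 and 53.8 CPM, a ratio of 2.22. The derlins are membrane proteins through which substrates leave the ER, and Derl2 (198, 264 and 203 CPM; 70.5 ± 8.86 TPM) and Derl1 (44.2, 38.5 and 49.2 CPM; 34.1 ± 5.77 TPM) were nearly level across the mice. Derl3, the derlin known from secretory cells, was the lowest of the 10, with 3.84, 2.90 and 2.53 CPM and 3.97 ± 0.830 TPM. Vcp encodes the ATPase that pulls substrates out of the membrane, and its level was as low, at 4.05 ± 2.44 TPM. It had 12.5, 3.41 and 6.90 CPM, a ratio of 3.32. Vcp shares 2421 bases at 95% identity or more with the annotated pseudogene Vcp-rs, so its value is uncertain where the counting could split reads between them. Derl1 shares 652 such bases with 1 annotated copy.

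Folding genes had the highest median level of the 6 roles, 221 TPM. Pdia3, a disulfide isomerase that works with calreticulin and calnexin on glycoproteins, had 852, 344 and 966 CPM in mice 1, 2 and 3 and the highest mean of the role, 598 ± 294 TPM. Manf, a stress-inducible ER protein, followed with 603, 720 and 617 CPM and 470 ± 31.2 TPM. Ero1l, the oxidase that regenerates disulfide isomerases, had 635, 464 and 624 CPM and 280 ± 56.7 TPM. Pdia3 was low in mouse 2, whereas Manf had its highest value there with a ratio of only 1.19. The lectin chaperones went different ways. Calr (calreticulin) had 289, 132 and 314 CPM and Canx (calnexin) had 321, 486 and 315 CPM, so mouse 2 was the lowest library for Calr and the highest for Canx.

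The remaining isomerases were lowest in mouse 2 and highest in mouse 3. Pdia4 had 17.8, 6.77 and 40.7 CPM in mice 1, 2 and 3, a ratio of 5.66, and averaged 23.9 ± 19.9 TPM. P4hb, which encodes the archetypal protein disulfide isomerase, had 72.0, 62.0 and 111 CPM, or 74.1 ± 27.1 TPM, and Pdia6 had 381, 245 and 469 CPM. Creld2 and Sdf2l1 had another order. Creld2, a stress-inducible ER protein, had 94.6, 112 and 175 CPM, and Sdf2l1, a cofactor of ER chaperones, had 19.7, 40.8 and 75.7 CPM, and both were lowest in mouse 1 and highest in mouse 3. Hyou1, the large ER chaperone that exchanges nucleotide on BiP, had few reads, with 9, 1 and 35 counts in mice 1, 2 and 3. No annotated copy of Hyou1 was found at 95% identity.

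Translocon genes were the most even role. Their summed level was 1892 CPM in mouse 1, 1975 CPM in mouse 2 and 1904 CPM in mouse 3, a mean of 1924 ± 44.9 CPM, and none of the 9 spanned 2-fold. By comparison, the folding genes summed to 3286, 2613 and 3708 CPM and the degradation genes to 698, 496 and 1007 CPM. Ssr2, a subunit of the translocon-associated protein (TRAP) complex, had 510, 480 and 641 CPM in mice 1, 2 and 3 and the highest mean level of all 40 genes, 753 ± 156 TPM. Sec61b, the small beta subunit of the channel, had 192, 231 and 205 CPM and 422 ± 31.2 TPM. Ssr4, another TRAP subunit, had 416, 452 and 380 CPM and 344 ± 13.1 TPM. The ratios of Ssr4 (1.19), Sec61b (1.20) and Ssr3 (1.23) were among the 5 smallest of the 38 genes.

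Levels within a complex differed for some subunits and not for others. Sec61a1, which encodes the pore itself, had 60.3, 33.3 and 33.5 CPM in mice 1, 2 and 3 and 16.2 ± 5.89 TPM. Sec61g, the gamma subunit, had 13.5, 15.8 and 11.7 CPM and 14.2 ± 1.48 TPM. The means of Sec61a1 and Sec61g lay within their spread of each other, and that of Sec61b was far above both. Ssr1 had 27.4, 19.7 and 33.4 CPM and the lowest mean of the role, 6.66 ± 2.02 TPM. Ssr3 lay between them, with 155, 191 and 170 CPM and 106 ± 9.26 TPM. Sec62 and Sec63 help proteins enter the channel after translation. Sec62 had 476, 525 and 380 CPM and Sec63 had 42.1, 27.7 and 49.6 CPM, with opposite orders of libraries. Short genes with processed copies are the least certain here, since Sec61g matched 4 annotated pseudogenes and Sec61b matched 3 annotated copies, 2 of them pseudogenes, over at most 420 and 474 bases.

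Partners, paralogues or arms of the pathway were compared in 14 pairs, within each library, as differences of log2(TPM + 0.5). The smallest p of an exact two-sided sign-flip test with n = 3 is 0.25, and no pair could therefore pass 0.05. The largest difference was Xbp1 over Atf6, at 6.60 ± 0.44, positive in 3 of 3 libraries (exact p = 0.25, adjusted p = 0.35 over 14 pairs). In all, 10 pairs had the same sign in all 3 libraries and the same p. In the channel, Sec61b exceeded Sec61a1 by 4.72 ± 0.59 and Ssr4 exceeded Ssr1 by 5.63 ± 0.48, while Sec63 minus Sec62 was -4.51 ± 0.63. These pairs differed by many times the spread between mice. Among the isomerases, Pdia3 minus P4hb was 2.91 ± 0.55, and between the phosphatase subunits Ppp1r15a minus Ppp1r15b was 3.80 ± 0.78. Ern1 exceeded Eif2ak3 by 2.3 ± 1.18, with 3.65 in mouse 1 against 1.78 and 1.46 in mice 2 and 3. In degradation, Sel1l exceeded Syvn1 by 1.27 ± 0.51, Derl1 exceeded Derl3 by 2.95 ± 0.36 and Derl1 minus Derl2 was -1.04 ± 0.39.

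The other 4 pairs changed sign between libraries. Calr minus Canx was 0.55, -1.17 and 0.70 in mice 1, 2 and 3, a mean of 0.02 ± 1.04 (exact p = 1). Edem1 minus Edem2 was 0.27 ± 0.85 and positive in 1 of 3 libraries (exact p = 1). Atf6b minus Atf6 was 0.31 ± 1.43 and Atf4 minus Ddit3 was -0.17 ± 0.59 (exact p = 0.75 for each, adjusted p = 0.875). In these pairs the mean difference was smaller than the spread between mice, and 3 libraries leave differences of either sign possible. The exon length used also matters for pairs with long annotated exons, since Derl1 minus Derl2 became -2.10 ± 0.39 and Ssr4 minus Ssr1 became 7.39 ± 0.47 when the longest basic transcript was used.

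**Figure D2:**
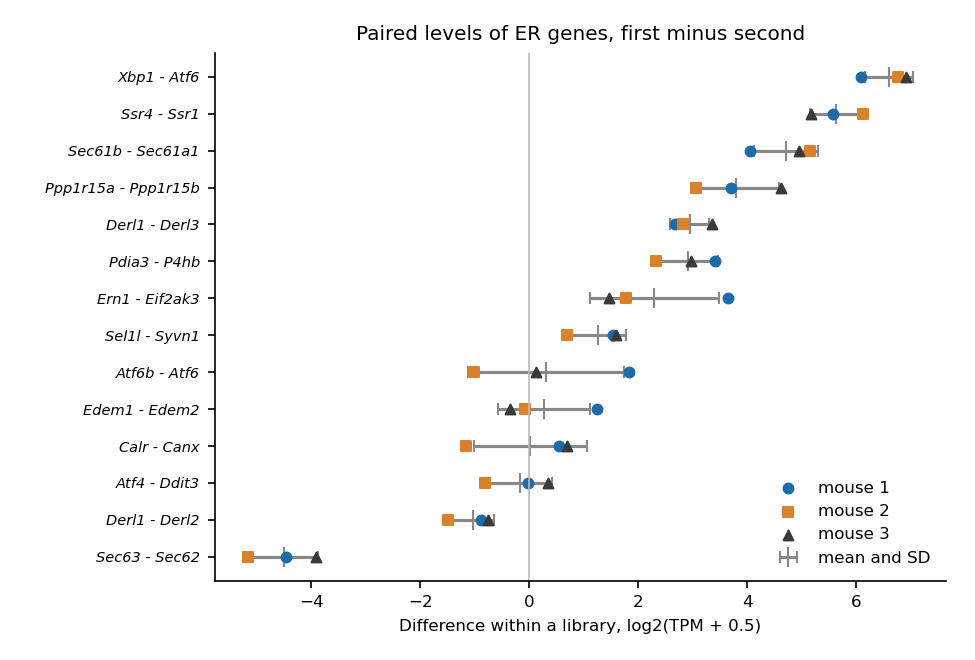
Differences of log2(TPM + 0.5) within each library for 14 gene pairs, first gene minus second. Points are single libraries, grey bars give the mean and SD over 3 libraries, and the vertical line at 0 marks equal levels. Of the 14 pairs, 10 keep the same side of 0 in all 3 libraries, from Xbp1 over Atf6 (6.60 on average) to Sec63 under Sec62 (-4.51), and 4 pairs cross 0.

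Variation between the mice was then tested for each gene against the trend of all genes at its abundance, with the quasi-dispersion F test of an edgeR quasi-likelihood fit to 9175 genes. Trib3 and Hyou1 did not pass the filter on low counts and were not tested. None of the 38 genes that passed the filter was more variable than the trend after Benjamini-Hochberg adjustment, against 0.185% of all genes tested (17 genes). Limma called 0 of the 38, against 0.185% of all genes, and DESeq2 marked 0 as dispersion outliers, against 0.262% of all genes. At such shares a count of 0 among 38 genes does not set them apart. Before adjustment, 10 of the 38 (26.3%) had p under 0.05, against 4.53% of all genes tested. They were Herpud1, Edem1, Edem2 and Edem3 in degradation, Pdia3, Calr, Pdia4 and Sdf2l1 in folding, Ppp1r15a in feedback and Atf6b among the sensors. This count was added once the values were known, and it was 5 without mouse 2, against 4.71% of all genes. The smallest p in the edgeR fit belonged to Herpud1, at 0.00113 (adjusted p = 0.414). Without mouse 1, Herpud1 passed (adjusted p = 0.0371), and over all alternatives its adjusted p was 0.0371 to 0.983. Pdia3 at 0.00732 and Ppp1r15a at 0.00744 followed in the same fit (adjusted p = 0.935 each). These p-values measure the spread between 3 libraries, which includes the sort and the amplification as well as the mice.

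**Figure D3:**
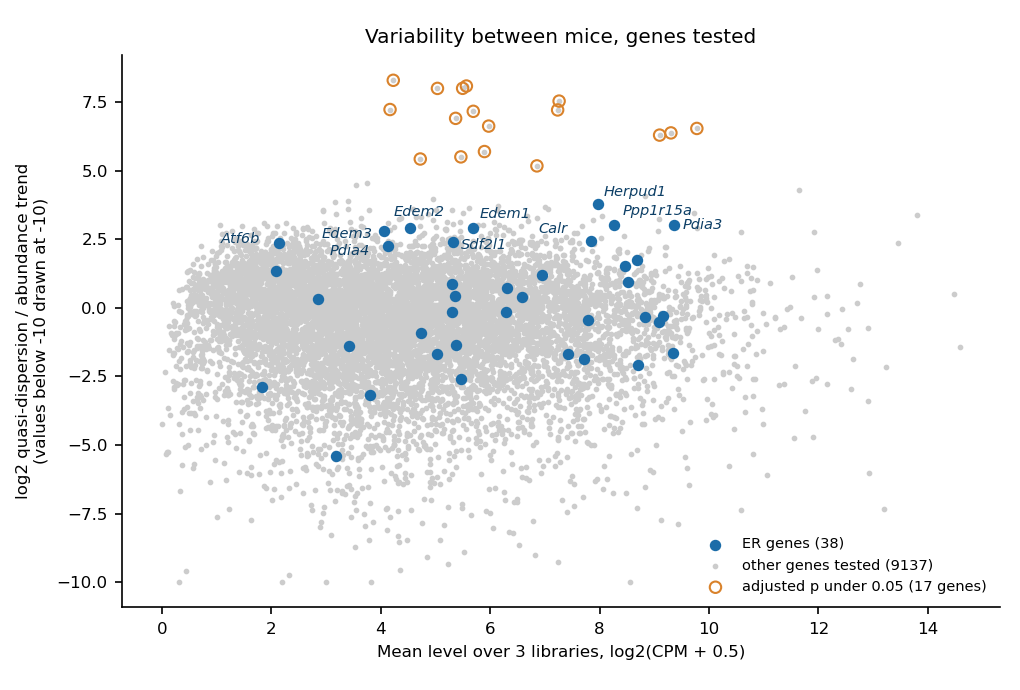
Variability of each tested gene against its mean level. The x axis is the mean log2(CPM + 0.5) over 3 libraries and the y axis is the log2 ratio of the gene's quasi-dispersion to the abundance trend, with 38 ER genes in blue, 9137 other genes in grey and the 17 genes past the adjusted threshold circled. The 10 named ER genes had an unadjusted p under 0.05, and Herpud1 is the highest of them at 3.78, below all circled genes.

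By the plain size of the spread, without regard to level, the 38 genes did not stand apart from all genes tested. The highest library was over 2-fold above the lowest in 13 of 38 (34.2%), against 39.0% of all genes tested, and the median ratio was 1.76, against 1.75. The 13 genes comprised 6 degradation genes, 4 folding genes, 2 sensors and Ppp1r15a, and no transcription factor or translocon gene. Without mouse 2, 5 of 38 (13.2%) exceeded 2-fold, against 21% of all genes. Without mouse 1 the count was 10 of 38 (26.3%), against 23.4%, and without mouse 3 it was 11 of 38 (28.9%), against 21.9%, so the side of the background on which the members lay depended on the libraries used.

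The order of the libraries was less even. Mouse 2 was the lowest library for 23 of the 38 genes (60.5%), against 36.9% of all genes tested. It was lowest with mouse 3 highest for 17 of them (44.7%), against 20.1% of all genes. Neither count was planned, and this order was picked out after the values were seen. These 17 included Herpud1, Sel1l, Syvn1, Edem1, Edem2 and Derl1 in degradation and Calr, Pdia3, Pdia4, Pdia6 and P4hb in folding. The order followed by the plasma cell markers, lowest in mouse 1 and highest in mouse 3, was held by 3 of the 38 genes (7.89%), against 14.1% of all genes. Those 3 were Creld2, Sdf2l1 and Xbp1, which was almost equal in mice 1 and 2 at 339 and 341 CPM. With CPM scaled by library totals alone, 2 of the 38 genes (5.26%) held that order, against 12.9% of all genes. Of the 10 plasma cell markers tested, 8 had that order. Mouse 3 was thus the highest library for those 8 markers. It was also highest for the 3 genes of that order and for the 17 genes with mouse 2 lowest and mouse 3 highest. Mzb1, an ER protein of antibody-secreting cells, was at 22.6, 24.4 and 85.4 CPM in mice 1, 2 and 3. Jchain, the joining chain of secreted antibody, was at 5527, 13790 and 18473 CPM. Of the 6 epithelial markers only Epcam was detected, and their summed level was 29.4 CPM in mouse 1, 9.78 CPM in mouse 2 and 25.8 CPM in mouse 3, with Cdh1 and Muc2 at 0 counts in every library. Epcam itself was at 29.4, 3.70 and 25.8 CPM in mice 1, 2 and 3, whereas Krt18 (74 counts) and Vil1 (32 counts) had reads in mouse 2 alone. The B cell marker Cd79b also had its lowest value in mouse 2 and its highest in mouse 3. Summed levels of the T cell, myeloid, and granulocyte and mast cell lists were highest in mouse 2, at 409, 45.4 and 37 CPM there, but single markers differed. Of the 409 CPM, Cd3g alone gave 385 CPM, while Cd3e (9.26, 8.02 and 3.49 CPM) and Cd3d (3.13, 1.19 and 1.57 CPM) were highest in mouse 1. The mast cell gene Cpa3, at 18, 4.72 and 11.4 CPM, was lowest in mouse 2. Mouse 2 was also the library with the fewest counts, 17819551. The part of plasma cell or epithelial transcripts, or of depth, in the members' values was not tested.

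**Figure D4:**
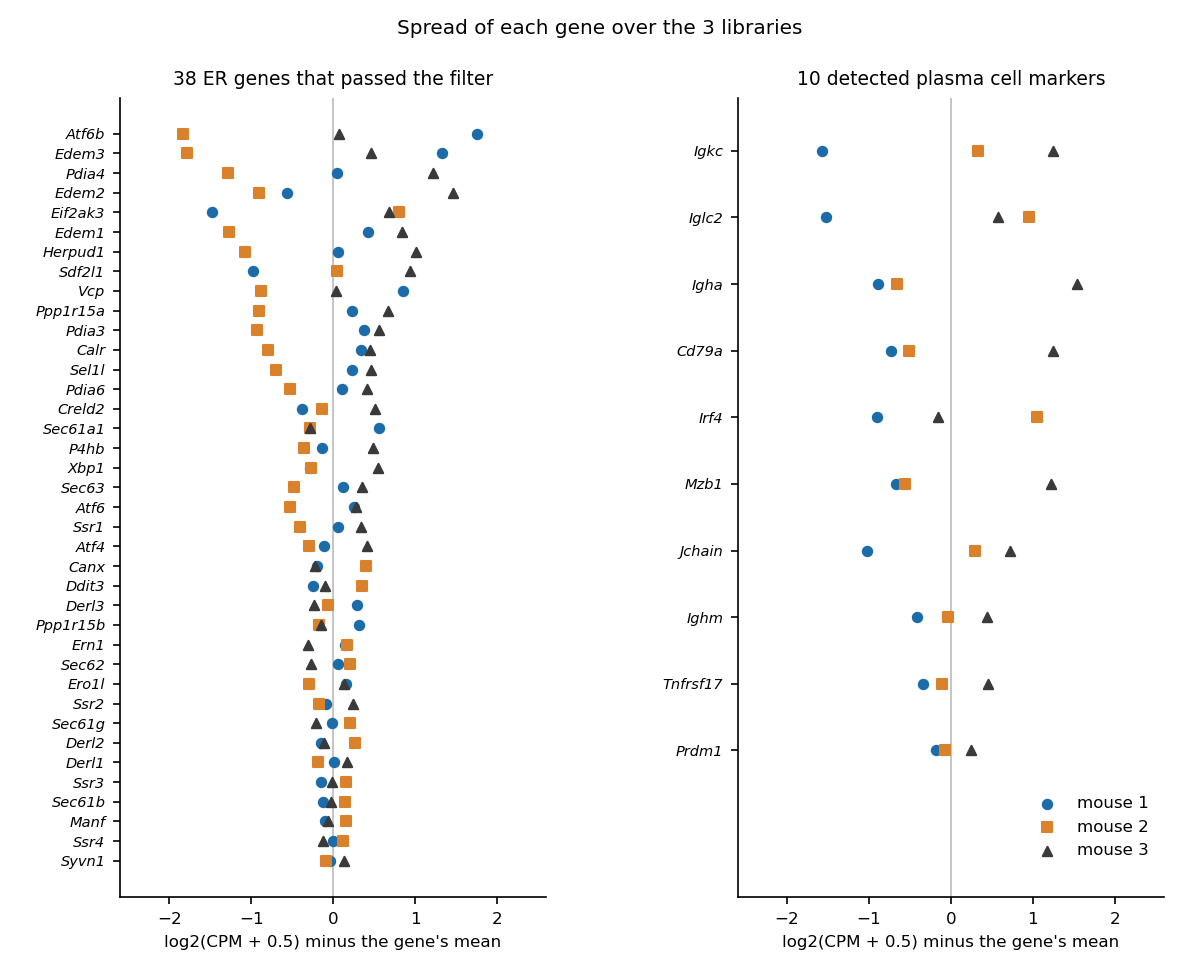
Deviation of each gene's log2(CPM + 0.5) from its mean over 3 libraries, for the 38 ER genes (left, widest spread at the top) and the 10 detected plasma cell markers (right). Points are single libraries. Mouse 2 is the lowest library for 23 of the 38 ER genes, a count that was not planned, and for none of the 10 markers. Of the markers, 8 are lowest in mouse 1 and highest in mouse 3. Mouse 3 is also the highest library for 17 of the ER genes with mouse 2 lowest (44.7% of the 38, against 20.1% of all genes tested).

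**Figure D5:**
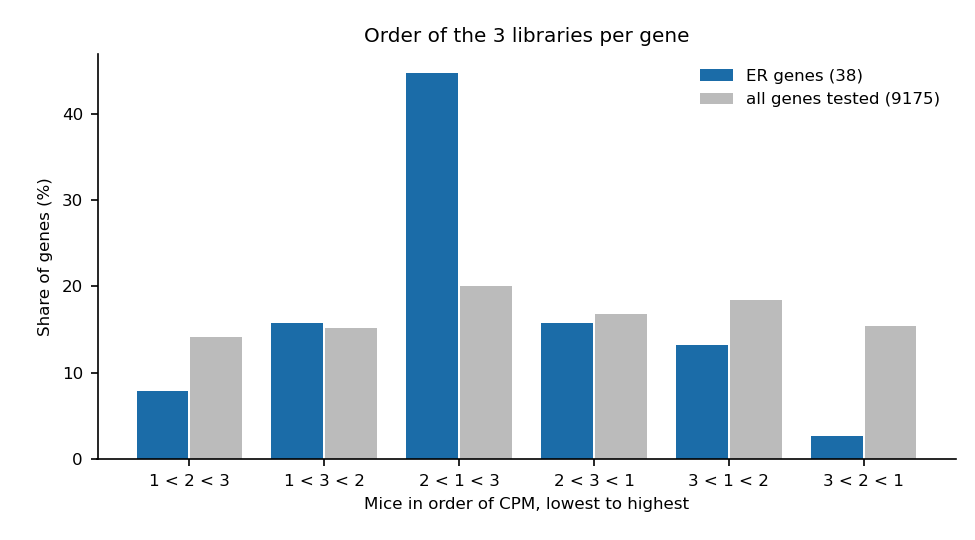
Share of genes with each of the 6 possible orders of the libraries by CPM, for the 38 ER genes (blue) and all 9175 genes tested (grey, which include the 38). The order with mouse 2 lowest and mouse 3 highest holds 44.7% of the ER genes and 20.1% of all genes, and was picked out after the values were seen.

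The rest of the pathway was read from 93 further genes listed by role. Of these, 80 were detected (86%, against 31.1% of all gene IDs) and 82 passed the filter. Among the 82, 20 exceeded 2-fold (24.4%, against 39.0% of all genes tested), 7 had an unadjusted p under 0.05 in edgeR (8.54%, against 4.53%) and 0 passed after adjustment, against 0.185%. Their median ratio of highest to lowest library was 1.53. In 24 of the 82 (29.3%, against 20.1%), mouse 2 was lowest and mouse 3 highest. The order of the plasma cell markers, lowest in mouse 1 and highest in mouse 3, was held by 14 of the 82, against 14.1% of all genes tested. Among the ER heat shock proteins and their co-factors, 17 of 19 were detected. Hspa5 encodes BiP, the main ER chaperone and a repressor of the sensors, and had 1709, 1117 and 1900 CPM in mice 1, 2 and 3 with 965 ± 289 TPM. Next came Sdf2 with 349 ± 18.3 TPM, and the lowest was the isomerase gene Pdia5 with 1, 0 and 0 counts. Hspa5 itself was thus lowest in mouse 2 and highest in mouse 3, though within 2-fold.

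Genes of targeting, signal peptide cleavage and glycosylation had the highest median level of the further lists, 151 TPM. Of these 22 genes, 21 were detected, and they summed to 12780, 14532 and 13082 CPM in mice 1, 2 and 3. Dad1, a subunit of the oligosaccharyltransferase that attaches sugars, averaged 1564 ± 199 TPM, and Spcs2, a subunit of signal peptidase, 1539 ± 242 TPM. The lowest was Tram2, with 0, 3.24 and 2.95 CPM. In export from the ER and retrieval to it, 15 of 16 were detected. Sar1a and Sar1b, the GTPases that start the vesicle coat, averaged 535 ± 47.2 and 389 ± 33.8 TPM, and Kdelr3, a receptor that returns ER proteins, had 0, 0 and 137 counts.

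Partners in degradation were detected in 13 of 14 cases, and 2 of them had the highest levels of the whole pathway. Bcap31, a membrane chaperone, averaged 4282 ± 173 TPM and Selk, a selenoprotein of the ER membrane, 3066 ± 667 TPM. The eIF2-alpha and ATF4 arm had the lowest median level of the lists, 2.36 TPM, with 7 of 15 genes detected. Atf3, a stress-induced transcription factor, averaged 274 ± 69.0 TPM and Eif2s1, which encodes eIF2-alpha itself, 156 ± 10.5 TPM, whereas Vldlr had 0 counts in every library, which allows up to 0.171 CPM in mouse 2. ATF4 targets near 0 included Chac1 (0, 0 and 11 counts) and Slc7a11 (0, 1 and 1 counts), named after their values were seen. In the same list Asns had 6.75, 0.455 and 10.7 CPM in mice 1, 2 and 3. The 7 detected genes, Atf3 among them, were at 1 CPM or more in each library. All 7 genes of ATF6 processing and related factors were detected, led by Creb3 at 101 ± 5.07 TPM and Nfyc at 18.8 ± 4.97 TPM, with the lowest level for the protease gene Mbtps2 at 1.25 ± 0.687 TPM.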

How the data were processed

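The deposited values are unnormalized read counts for Entrez gene IDs, a column for each of the 3 libraries. Per the labels' protocols, the SMARTer Ultra Low Input kit V4 was used for library preparation. This full-length kit does not mark strand, so reads of overlapping antisense genes cannot be told apart; 12.8% of the exon length of Ssr2, 11.7% of Sec62 and 11.4% of Ppp1r15b overlapped exons of genes on the opposite strand. CASAVA 1.8.2, STAR 2.3.0 and the mm10 build are named in the submitters' processing notes. Neither the counter nor its handling of multi-mapping reads is given in the sources used here.

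CPM were computed with TMM factors (1.03, 0.987 and 0.989 for mice 1, 2 and 3) in edgeR 4.0.16 under R 4.3.3. Log values and ratios use log2(CPM + 0.5). TPM used summed exon lengths of GENCODE M21, matched by ID. IDs without a length, which include immunoglobulin constant genes, held 3.15%, 6.40% and 9.56% of counts in mice 1, 2 and 3 and stayed out of TPM. Variability was tested on 9175 genes that passed filterByExpr (minimum count 10), with an intercept-only quasi-likelihood fit, an upper-tail F test of each quasi-dispersion over its trend, and Benjamini-Hochberg adjustment at 0.05. Each pair of libraries differed by more than sampling noise (chi-square of 133 to 226 per degree of freedom). Limits from 3 counts cover counting error only. Copies of members were sought with blastn 2.17.0 (at least 95% identity over 200 bases).

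All 40 genes are accounted for. Values per library are given for every sensor, transcription factor and feedback gene, for the 3 highest and 3 lowest of other roles by TPM, for the 5 widest and 5 smallest ratios, and for other members described. Of the further pathway genes, the 2 highest and the lowest of each role are named, except where a gene is not reported here. The members and lists were chosen with earlier results of these data known. Alternatives were other size factors, filters, pseudocounts, lengths and tools (limma 3.58.1, DESeq2 1.42.0), removal of immunoglobulin genes, and leaving out each mouse. The planned reading of protein ends is not analysed here.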

Additional observations from a re-analysis of the deposited data

How the results depend on the processing

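Every comparison rests on 3 libraries of 1 group. Hyou1 (9, 1 and 35 counts in mice 1, 2 and 3) and Trib3 (0, 28 and 0 counts) did not pass the filter on low counts. Their ratios depend on the added 0.5 CPM and were not used. Samples could not be paired between conditions because there is no second group, and the gene pairs were compared within each library. Of the results that answer a comparison, 163 values under alternatives stayed the same, 3 moved and 9 changed sign. For a count, the same means close to the main count, whatever its background share. For a pair, it means the same sign. Without each mouse in turn, the count of genes more variable than the trend was 0 to 1 (0.133% to 0.315% of all genes). That at an unadjusted p under 0.05 was 5 to 8 in place of 10 (4.71% to 5.66% of all genes). That over 2-fold was 5 to 11 in place of 13 (21% to 23.4% of all genes, in place of 39.0%). The lowest of the last 2 ranges came without mouse 2, and Herpud1 was the single call, without mouse 1. At a minimum of 5 CPM, 33 of the 40 genes (82.5%) were detected, against 23.6% of all gene IDs. The sign of 4 pairs was not stable. Without division by length, Atf6b minus Atf6 was -1.28, Atf4 minus Ddit3 was 0.29 and Calr minus Canx was -0.68. With the longest basic transcript, Edem1 minus Edem2 was -0.17. Without each mouse, Atf6b minus Atf6 was -0.44 to 0.98, Atf4 minus Ddit3 was -0.43 to 0.15, Calr minus Canx was -0.31 to 0.62 and Edem1 minus Edem2 was -0.22 to 0.58. Division by length itself changes the values of the first 3, and the choice of exon length changes that of Edem1 minus Edem2. The values without a mouse are means over the remaining libraries. Why the libraries differed was not tested.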
